A study of Mus musculus with 42 samples.

Results

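The genes of the major histocompatibility complex (MHC) and of antigen presentation were examined in sorted mouse microglia. Members were chosen by name. They were the 29 genes of the table whose names begin with H2-, the mouse MHC, and 22 named components of peptide processing, loading, transcription and costimulation, which gave 51 of the 19151 genes in the table. All 22 listed names were found. A gene was tested where its mean reached 7 on the table's log2 scale in at least 1 of 12 groups, and 45 members passed. The 6 members below that level were H2-Eb2, H2-Bl, H2-M2, H2-M5, H2-Q2 and H2-T18.

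RNA was sequenced from microglia, the resident macrophages of the brain, of male C57BL/6 mice, either wild-type (WT) or APP/PS1. APP/PS1 mice carry mutant transgenes for the amyloid precursor protein and presenilin 1 and develop amyloid plaques with age. The transgenes are driven by a prion protein promoter, so they model amyloid deposition and not the whole of Alzheimer disease. Cells that stained for CD11b and CD45 were fixed, permeabilised and sorted by nuclear staining for Ki67, a protein of cycling cells, into Ki67+ and Ki67- fractions, and the WT mice carried no transgene. At 4 months the table held 5 Ki67+ and 5 Ki67- libraries of WT mice and 4 of each fraction of APP/PS1 mice. At 6 months it held 2 Ki67+ and 3 Ki67- libraries of WT mice and 2 of each fraction of APP/PS1 mice. At 12 months it held 4 Ki67+ and 3 Ki67- libraries of WT mice and 4 of each fraction of APP/PS1 mice.

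MHC class I molecules are a heavy chain (H2-K and H2-D in C57BL/6 mice) paired with beta 2-microglobulin (B2m), and they show peptides from inside the cell to CD8+ T cells. Those peptides are cut by the proteasome, whose interferon-inducible form carries Psmb8, Psmb9 and Psmb10 and is activated by the PA28 subunits Psme1 and Psme2. They are carried into the endoplasmic reticulum by Tap1 and Tap2 and loaded with the help of Tapbp (tapasin). MHC class II molecules (H2-A, from H2-Aa and H2-Ab1) show peptides from endosomes to CD4+ T cells, after the invariant chain Cd74 has been cut away and H2-DM has exchanged its last fragment for a peptide. H2-E is not displayed in C57BL/6 mice, whose H2-Ea gene is not functional, although its beta chain gene H2-Eb1 is transcribed. Resting microglia are known for low levels of class II, which rise with activation and age.

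Class I, B2m and class II promoters share a short module, in which an X box that ends in an X2 element lies upstream of a Y box. A complex of Rfx5, Rfxap and Rfxank binds the X box before X2, CREB factors such as Creb1 bind X2, and the factor NF-Y binds the Y box. Promoter windows (250 bases before to 50 bases after the start of a gene) from RefSeq on GRCm38.p6 were matched by symbol to 35 of the 51 members. Of these 35 genes, 13 held the letters TGANG followed after 15 to 25 bases by ATTGG on the gene's own strand, against 1.61% of all 32851 windows. The spacing and letters were chosen after the sequences were seen, and a match describes letters only. ATTGG alone, on either strand, was in windows of 26 of the 35 genes and in 37.4% of all windows, and the longer CTGATTGG, which contains it, was in 12 of the 35 and in 4.1% of all windows. The core of the interferon-stimulated response element was searched on both strands as 1 exact pattern. It was found for 5 of the 35, namely B2m, Erap1, H2-T22, H2-T23 and Psme1, and in 3.44% of all windows. Variants of this pattern were not searched, so H2-D1 and other genes without a match may still hold the element. The letters of the gamma-activated site, searched on both strands, were found for 3 of the 35, H2-DMb2, H2-M3 and Psmb8. They were in 8.3% of all windows. The cyclic AMP response element, searched on both strands, was found for 1 of the 35, H2-Aa, and in 1.79% of all windows. The last 160 bases before the start are shown for 2 class I and 2 class II genes on which the results turn, with TGANG and ATTGG in capitals and, for B2m, the interferon-stimulated element in capitals as well, upstream of both.
H2-Aa, chr17:34287824-34287983, minus strand: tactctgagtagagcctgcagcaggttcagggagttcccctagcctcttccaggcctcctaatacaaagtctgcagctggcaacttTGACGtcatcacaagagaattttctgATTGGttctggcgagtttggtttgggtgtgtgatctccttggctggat
H2-Eb1, chr17:34305707-34305866, plus strand: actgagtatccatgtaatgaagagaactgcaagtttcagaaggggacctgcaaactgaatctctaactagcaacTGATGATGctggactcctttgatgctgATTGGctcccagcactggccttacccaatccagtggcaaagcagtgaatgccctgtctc
H2-D1, chr17:35262934-35263093, plus strand: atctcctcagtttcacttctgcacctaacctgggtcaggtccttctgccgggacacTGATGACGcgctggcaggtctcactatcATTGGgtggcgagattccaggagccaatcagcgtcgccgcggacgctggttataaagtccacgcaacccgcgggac
B2m, chr2:122147527-122147686, plus strand: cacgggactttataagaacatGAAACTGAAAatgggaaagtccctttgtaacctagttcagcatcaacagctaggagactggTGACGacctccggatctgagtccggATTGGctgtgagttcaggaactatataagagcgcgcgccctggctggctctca

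The spacer between both elements was 21 bases in H2-Aa and 20 bases in B2m. In H2-Eb1 and H2-D1 the first element occurred in overlapping forms, with spacers of 22 and 19 bases in H2-Eb1 and of 23 and 20 bases in H2-D1. The promoter windows of H2-K1, H2-Q6 and H2-Q7 also held this pair of elements.

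All values below are the deposited ones, on a log2 scale after 10 surrogate variables had been removed by the authors, so a difference of 1 is a doubling for well-expressed genes and understates the change of genes near the floor of the scale. These values do not show how many reads a library had, so the depth behind each value is unknown. Removing the surrogate variables left unequal spread between replicates. The 3 libraries of WT Ki67- microglia at 12 months were nearly identical (median SD 0.0318 over genes, with 0.02 of 2 degrees of freedom left). In WT Ki67- microglia at 4 months replicates 1 and 2 were close (H2-D1 11.89 and 11.87, Cd74 12.76 and 12.67), with 1.93 of 4 degrees left. In Ki67+ microglia at 12 months 1.23 of 3 were left in WT and 1.56 of 3 in APP/PS1 mice. Values that do not overlap say little by themselves for the first of these groups, and less than the numbers of libraries imply for the others. Tests therefore used the spread pooled over all 12 groups (limma, 20 residual degrees of freedom), and its standard errors (SE) leave out the uncertainty that the removal added to the group means. The mean of 7 microglial markers lay between 13.24 and 13.82 in 11 groups and at 12.48 in the 2 Ki67+ libraries of WT mice at 6 months, which stood apart. T cell markers averaged 6.46 to 6.73 and B cell markers 6.74 to 7.16 over groups, near the level of genes without signal, although the B cell marker Cd79b averaged 8.44. Other lists stood higher. Their highest group means were 7.35 for dendritic cell, 7.79 for endothelial, 8.18 for neuron and 8.37 for monocyte markers. They were 8.58 for border macrophage, 9.61 for neutrophil, 10.8 for astrocyte and 13.09 for oligodendrocyte markers. In sorted bulk samples fewer cells of a type and less RNA per cell cannot be told apart.

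Group means of a tested member spanned between 0.77 (H2-Q1) and 5.20 (Cd74), with a median span of 1.62. The widest after Cd74 were H2-Aa (4.98), H2-Ab1 (4.80) and H2-Eb1 (4.33), so that the class II chains and their chaperone were the members that varied most between groups. The highest group mean of 13 members, among them H2-K1, H2-D1, B2m, Tap1 and Tapbp, was in APP/PS1 Ki67+ microglia at 12 months. That of 11 others, among them H2-Aa, H2-Ab1, H2-Eb1, Cd74 and Ifi30, was in WT Ki67+ microglia at 12 months. The lowest group mean of 21 members was in the WT Ki67+ libraries at 6 months that stood apart.

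At 12 months, the class I genes B2m and H2-D1 were higher in APP/PS1 Ki67- microglia, by 1.35 and 1.38 on the log2 scale over WT mice. In B2m the 4 APP/PS1 Ki67- libraries had values of 14.07, 14.45, 14.74 and 15.13, and the 3 WT libraries 13.22, 13.26 and 13.27. Every APP/PS1 library was above every WT library, and the difference was 1.35 ± 0.28 (SE, limma adjusted p = 0.00164). In H2-D1 the APP/PS1 Ki67- libraries had values of 13.04, 13.11, 13.22 and 13.50 against 11.84, 11.84 and 11.85, a difference of 1.38 ± 0.27 (SE, limma adjusted p = 0.00106). H2-K1, the second classical heavy chain, had values of 12.57, 12.77, 12.82 and 12.87 against 12.04, 12.08 and 12.09. Its difference was smaller, 0.68 ± 0.23 (SE, limma adjusted p = 0.0402), and its call was lost without any 1 of 6 of the 7 libraries (adjusted p up to 0.102), whereas B2m and H2-D1 stayed called without any 1 library. Because the 3 WT libraries were nearly identical, leaving out 1 of them could hardly move their mean. For the WT side these calls were therefore not put to the test.

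In Ki67+ microglia at 12 months B2m was also higher in APP/PS1 mice. The 4 APP/PS1 libraries had B2m values of 14.48, 14.82, 15.15 and 15.63 and the 4 WT libraries 13.75, 14.01, 14.08 and 14.38, so the groups did not overlap. The difference was 0.97 ± 0.26 (SE, limma adjusted p = 0.0192), and it missed the threshold without APP/PS1 Ki67+ replicate 3 (0.76, adjusted p = 0.0667) or WT Ki67+ replicate 3 (0.86, adjusted p = 0.0673). H2-D1 had values of 13.24, 13.39, 13.67 and 13.74 in APP/PS1 and 12.58, 12.93, 13.04 and 13.19 in WT Ki67+ microglia, a difference of 0.57 ± 0.25 that did not pass (limma adjusted p = 0.147). The mean of H2-K1 was 13.08 ± 0.16 against 13.06 ± 0.14 in WT Ki67+ libraries (SD, n = 4 each), with a difference of 0.01 ± 0.21 (SE, limma adjusted p = 0.977). Whether the genotype difference depended on the Ki67 fraction was not shown for these genes, since the interaction was -0.38 ± 0.38 (SE) for B2m, -0.81 ± 0.37 for H2-D1 and -0.67 ± 0.31 for H2-K1, with limma adjusted p of 0.581, 0.181 and 0.185.

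**Figure D1:**
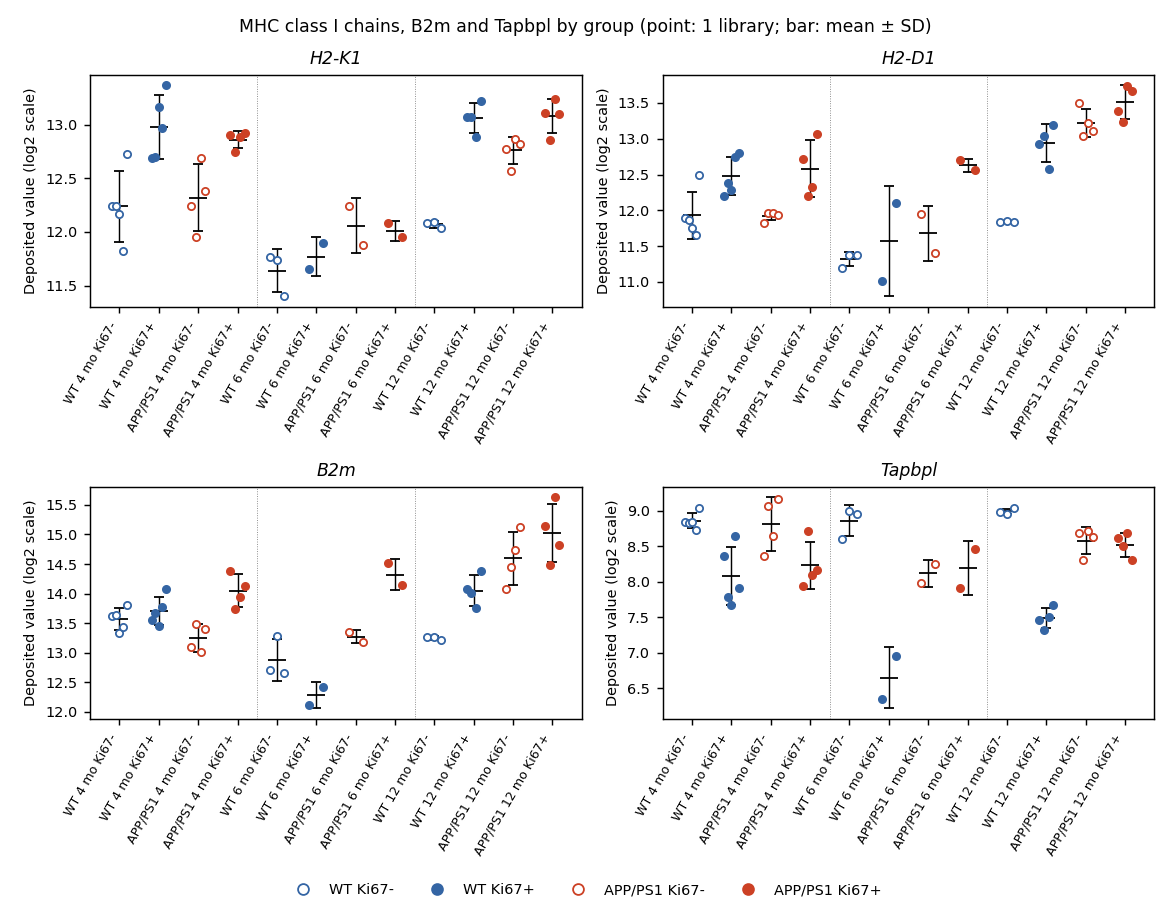
Deposited values (log2 scale) of H2-K1, H2-D1, B2m and Tapbpl in each of the 12 groups, with 1 point per library and bars for mean ± SD. The 8 APP/PS1 libraries at 12 months have B2m values of 14.07 to 15.63, of which the lowest overlap other groups (up to 14.51), and Tapbpl is lower in the Ki67+ than in the Ki67- libraries of WT mice at 12 months (7.32 to 7.67 against 8.96 to 9.04).

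The 3 tested class II chains differed the other way in Ki67+ microglia. At 12 months H2-Aa, H2-Ab1 and H2-Eb1 were lower in this fraction of APP/PS1 mice, with differences from WT mice of -2.11 to -1.66 on the log2 scale. H2-Aa, the alpha chain of H2-A, had values of 10.26, 11.12, 11.28 and 11.66 in APP/PS1 and 12.89, 13.14, 13.28 and 13.48 in WT Ki67+ libraries. The groups did not overlap, and the difference was -2.11 ± 0.48 (SE, limma adjusted p = 0.00716). H2-Ab1, its beta chain, had values of 10.88, 11.18, 11.71 and 11.79 against 12.99, 12.99, 13.05 and 13.17, a difference of -1.66 ± 0.41 (SE, limma adjusted p = 0.0112). Both stayed called without any 1 library.

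H2-Eb1 had values of 8.80, 9.91, 10.46 and 10.53 in APP/PS1 and 11.40, 11.81, 12.08 and 12.09 in WT Ki67+ libraries at 12 months. Its difference of -1.92 ± 0.58 (SE, limma adjusted p = 0.0359) lost its call without any 1 of 6 of the 8 libraries, with differences of -2.12 to -1.54 and adjusted p up to 0.135. Cd74, the invariant chain, had values of 11.63, 12.56, 13.07 and 13.16 against 13.97, 14.31, 14.59 and 14.67. Every APP/PS1 value was below every WT value, and the difference of -1.78 ± 0.59 (SE) just missed the threshold (limma adjusted p = 0.0518). Ifi30, a thiol reductase of endosomal antigen processing, was 10.01 ± 0.26 against 10.99 ± 0.17 in WT Ki67+ libraries (SD, n = 4 each), a difference of -0.98 ± 0.31 (SE, limma adjusted p = 0.0424) that was lost without any 1 of 7 of the 8 libraries (adjusted p up to 0.124).

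The other class II loading genes did not pass the test in this comparison. H2-DMa, H2-DMb1 and H2-DMb2, chains of the peptide exchange factor H2-DM, and H2-Oa and H2-Ob, chains of its inhibitor H2-DO, had positive differences, the largest 0.78 ± 0.30 (SE, limma adjusted p = 0.0944) in H2-Oa. Of the 7 tested class II loading genes 1 was called, Ifi30, and 5 had differences above 0.

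Marker lists of other cells were compared in the same libraries. In Ki67+ microglia at 12 months the mean of 7 border macrophage markers was 7.47 to 8.03 over the APP/PS1 libraries and 8.26 to 8.47 over the WT libraries, and that of 4 monocyte markers was 6.71 to 7.31 against 8.21 to 8.36. The mean of 6 dendritic cell markers was 6.69 to 6.87 against 7.23 to 7.53. None of the 7 border macrophage markers was called, and 1 of 6 dendritic cell markers (Clec10a) and 1 of 4 monocyte markers (Chil3) were called lower. The mean of 5 astrocyte markers was 9.93 to 10.17 against 10.65 to 10.98, that of 5 neutrophil markers 6.78 to 8.39 against 8.61 to 9.30, and that of 5 oligodendrocyte markers 8.86 to 9.32 against 8.0 to 8.68, so that the libraries of the genotypes did not overlap for any of these lists. Their part in the class II difference was not tested.

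**Figure D2:**
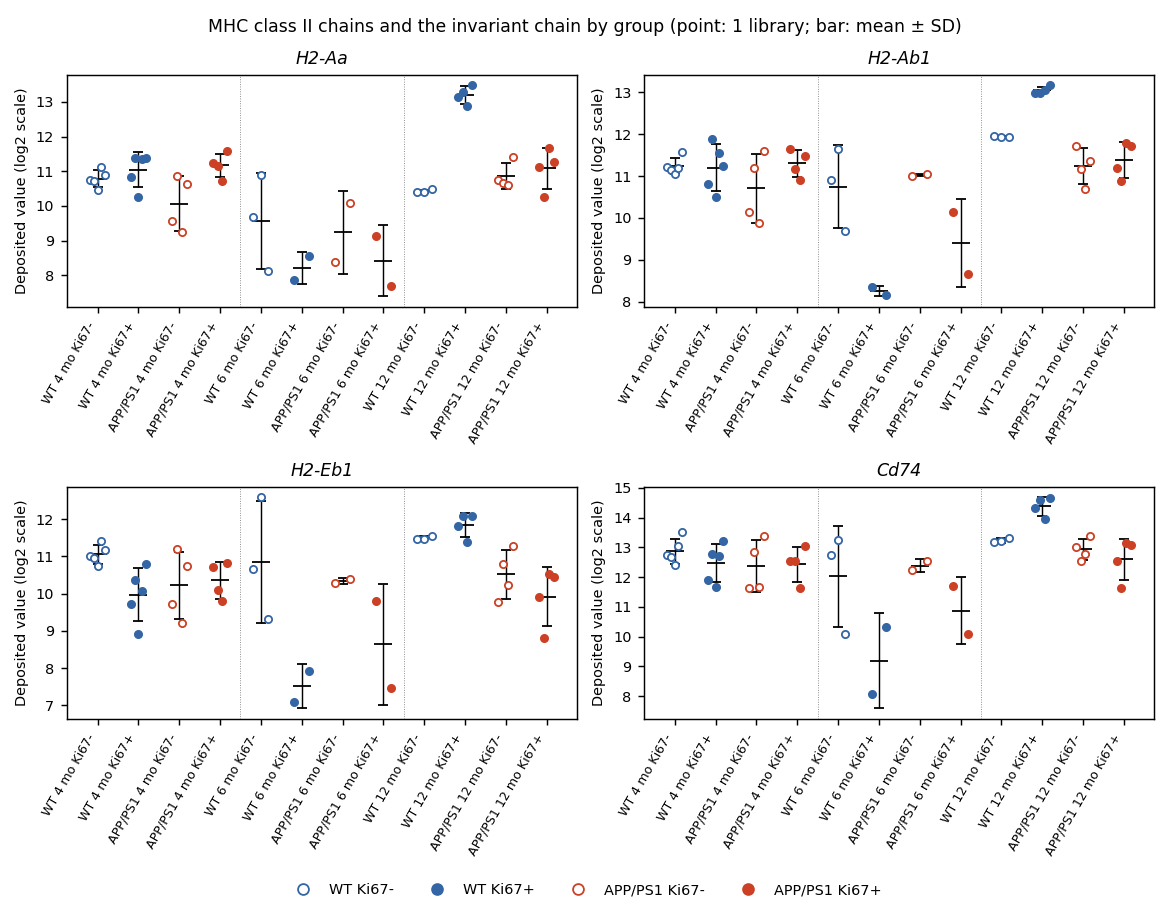
Deposited values (log2 scale) of H2-Aa, H2-Ab1, H2-Eb1 and Cd74 in each of the 12 groups, with 1 point per library and bars for mean ± SD. The 4 WT Ki67+ libraries at 12 months have the highest values of H2-Aa (12.89 to 13.48), above the 4 APP/PS1 Ki67+ libraries (10.26 to 11.66), and the 6-month Ki67+ libraries are among the lowest.

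In Ki67- microglia at 12 months no class II chain was called between genotypes. H2-Aa had values of 10.61, 10.66, 10.75 and 11.42 in APP/PS1 and 10.39, 10.40 and 10.48 in WT libraries, a difference of 0.44 ± 0.52 (SE, limma adjusted p = 0.635). H2-Ab1 had a difference of -0.70 ± 0.44 (SE, limma adjusted p = 0.310), H2-Eb1 of -0.97 ± 0.63 (adjusted p = 0.327) and Cd74 of -0.31 ± 0.63 (adjusted p = 0.805). In this fraction 4 of the 7 border macrophage markers (Cbr2, Cd163, Lyve1 and F13a1) were called lower in APP/PS1 libraries, and their part in the member differences was not tested. The difference between both fractions was tested for each. It passed for H2-Aa, whose genotype difference in Ki67+ minus that in Ki67- microglia was -2.55 ± 0.71 (SE, limma adjusted p = 0.0275). That call was lost without APP/PS1 Ki67+ replicate 2 (-2.28, adjusted p = 0.0609), APP/PS1 Ki67- replicate 4 (-2.37, adjusted p = 0.0508), WT Ki67- replicate 1 (-2.54, adjusted p = 0.0530) or WT Ki67- replicate 2 (-2.54, adjusted p = 0.0535). The interaction did not pass for H2-Ab1 (-0.96 ± 0.60, adjusted p = 0.336), H2-Eb1 (-0.95 ± 0.86, adjusted p = 0.536) or Cd74 (-1.47 ± 0.86, adjusted p = 0.305).

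Among the processing and loading genes of class I, 3 were higher in APP/PS1 Ki67+ microglia at 12 months. Tapbpl, the tapasin-like peptide editor, had values of 8.30, 8.5, 8.61 and 8.69 in APP/PS1 and 7.32, 7.46, 7.5 and 7.67 in WT libraries, a difference of 1.04 ± 0.24 (SE, limma adjusted p = 0.00825). Tap1, a subunit of the peptide transporter, had values of 9.24, 9.38, 9.98 and 10.48 against 8.11, 8.40, 8.56 and 8.82, a difference of 1.30 ± 0.37 (SE, limma adjusted p = 0.0263). Neither gene's groups overlapped, and the Tap1 call, unlike that of Tapbpl, was lost without any 1 of 4 of the 8 libraries (adjusted p up to 0.103).

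Psme1, the alpha subunit of PA28, was 10.57 ± 0.15 against 9.68 ± 0.16 (SD, n = 4 each), a difference of 0.89 ± 0.27 (SE, limma adjusted p = 0.0346) that was lost without any 1 of 7 of the 8 libraries (adjusted p up to 0.0930). Tap2, the other transporter subunit, had a difference of -0.35 ± 0.22 (SE), and the 3 immunoproteasome subunits had differences between -0.40 and 0.33. None of these 4 passed. H2-M3, a class Ib molecule that presents N-formylated peptides, had values of 9.70, 9.72, 10.31 and 10.36 in APP/PS1 and 7.92, 8.32, 8.66 and 8.73 in WT Ki67+ libraries. Its difference of 1.61 ± 0.36 (SE, limma adjusted p = 0.0063) was the largest increase of a member in this comparison, and all 4 APP/PS1 libraries were above the WT ones.

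The genotype difference of Tapbpl was not the same in both fractions. In Ki67- microglia its difference between genotypes was -0.41 ± 0.26 (SE), which did not pass, and the interaction with the Ki67 fraction was 1.45 ± 0.36 (SE, limma adjusted p = 0.0145). Rfxank, a subunit of the complex that binds class I and class II promoters, differed the other way. It had values of 7.65, 8.36, 8.37 and 8.85 in APP/PS1 Ki67- and 6.81, 6.81 and 6.82 in WT Ki67- libraries, a difference of 1.49 ± 0.38 (SE, limma adjusted p = 0.00765), and 7.70, 8.24, 8.29 and 8.5 against 8.48, 8.49, 8.68 and 8.68 in Ki67+ libraries, where the groups overlapped and the difference of -0.40 ± 0.35 (SE) did not pass. Its interaction was -1.89 ± 0.52 (SE, limma adjusted p = 0.025). Ciita and Nlrc5, the master coactivators of class II and class I genes, were not called in either fraction, with differences of 0.28 and 0.25 for Ciita and 0.12 and 0.67 for Nlrc5 in Ki67+ and Ki67- microglia. The group means of Ciita, 6.35 to 7.37, lay near the level of genes without signal, so the lack of a call says little about it.

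The fifth member called in Ki67- microglia at 12 months was the class Ib gene H2-T24, with values of 7.83, 8.53, 8.81 and 9.65 in APP/PS1 and 7.43, 7.45 and 7.48 in WT libraries (1.25 ± 0.33, SE, limma adjusted p = 0.0101). H2-K1, H2-D1 and the H2-Q and H2-T genes resemble each other in sequence, so reads may have been divided among them, and their single values are less certain than those of B2m, Tap1 or Cd74.

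Counted over the members, 5 were called higher and 4 lower in APP/PS1 Ki67+ microglia at 12 months, of 45, against 4.43% and 5.34% of the 14910 genes tested (9.77% in both directions). The median difference of the members was 0.19 and that of all genes -0.02. In Ki67- microglia at 12 months 5 members were called higher and 0 lower, against 8.71% and 7.72% of all genes (16.4% in all), with medians of 0.25 and -0.00. At an unadjusted p under 0.05 (limma), 9 of the 45 members were higher and 0 lower in this fraction, against 29.1% of all genes in both directions. The count of members called higher was near the background in Ki67- microglia. In Ki67+ microglia the count called lower (4) was also near it, and the count called higher (5) lay above it. Both counts are small, and whether they exceed the background was not tested.

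**Figure D3:**
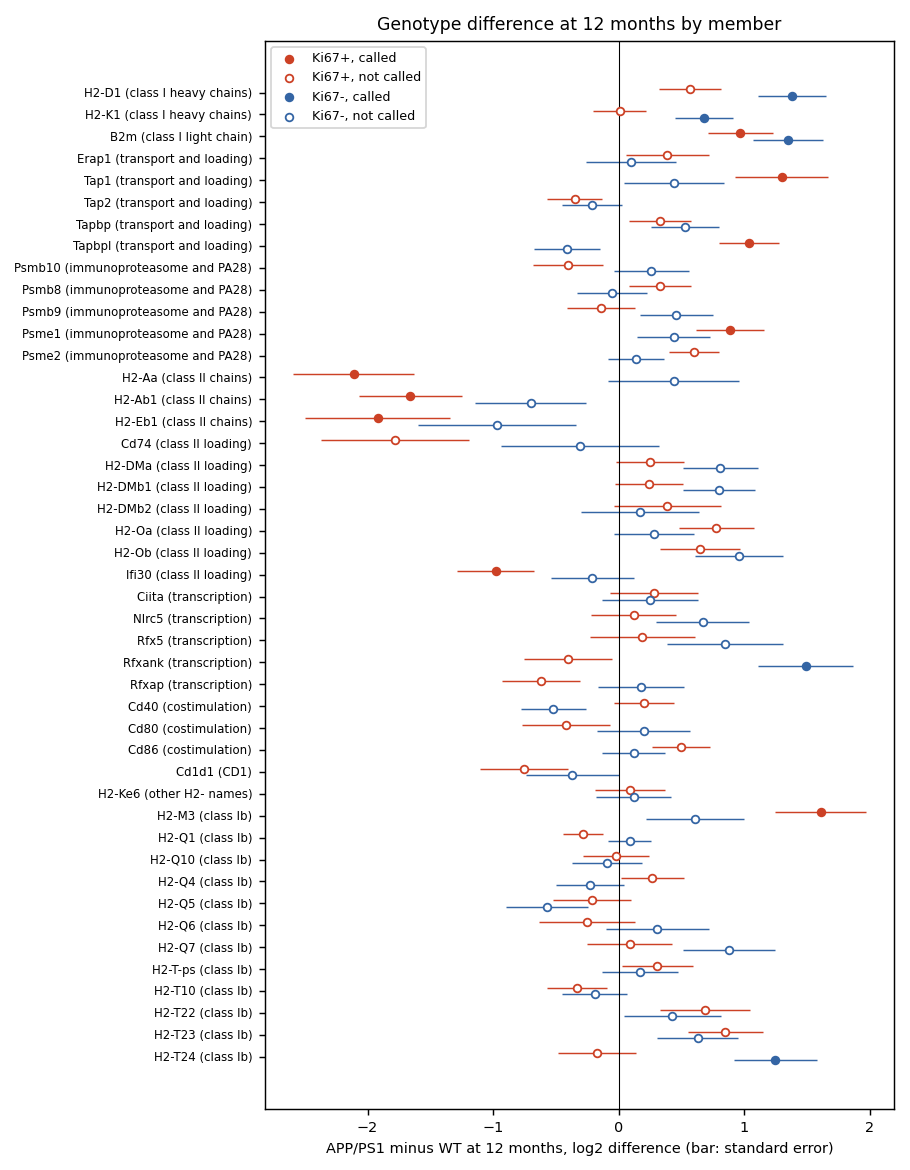
Difference between APP/PS1 and WT microglia at 12 months (log2 scale, bars for the standard error) of each of the 45 tested members, with Ki67+ in red, Ki67- in blue and filled points for calls at an FDR of 0.05. H2-Aa, H2-Ab1, H2-Eb1 and Cd74 lie between -2.11 and -1.66 in Ki67+ microglia, and B2m lies at 0.97 and 1.35 in both fractions.

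At 4 months no member was called between genotypes in either fraction (limma). In Ki67+ microglia 4 genes of all tested were called, all higher (0.0268%), and 1 member had an unadjusted p under 0.05, against 8.08% of all genes. In Ki67- microglia 0 genes were called (0.0%), and 2 members had an unadjusted p under 0.05, against 4.96% of all genes. In Ki67+ microglia the difference was 0.34 ± 0.25 (SE, limma adjusted p = 0.779) for B2m, from 13.45 to 14.07 in WT and 13.74 to 14.39 in APP/PS1 libraries, and 0.13 ± 0.46 (adjusted p = 0.978) for H2-Aa, and the ranges overlapped for both genes. The change of the genotype difference from 4 to 12 months passed in Ki67- microglia for B2m (1.67 ± 0.37, SE, limma adjusted p = 0.00811), Rfxank (2.04 ± 0.51, adjusted p = 0.0157), H2-D1 (1.39 ± 0.36, adjusted p = 0.0217) and H2-T24 (1.47 ± 0.44, adjusted p = 0.0442), which were 4 of 45 members, against 3.41% of all genes called in that direction, with 0 members called lower against 2.86% (6.26% in all). The H2-T24 call was lost without any 1 of 13 of the 16 libraries, and those of B2m, Rfxank and H2-D1 held without any 1 library. Leaving out 1 of the nearly identical WT Ki67- libraries at 12 months could hardly move their mean, so for them this says little. In Ki67+ microglia no member passed this test, as 1.35% of all genes did. There 8 members had an unadjusted p under 0.05, against 15.9% of all genes, and the lowest adjusted p was that of H2-Aa (-2.24 ± 0.67, SE, limma adjusted p = 0.0913).

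At 6 months the Ki67+ comparison rested on 2 libraries of each genotype, among them both WT libraries with low microglial markers. In Ki67+ microglia 5 members were higher in APP/PS1 mice and 0 lower, against 6.95% and 2.92% of all genes (9.87% in all). B2m had values of 14.14 and 14.51 in APP/PS1 and 12.12 and 12.43 in WT libraries, a difference of 2.05 ± 0.37 (SE, limma adjusted p = 0.000694). The others were Psme2, the beta subunit of PA28 (1.60 ± 0.28, adjusted p = 0.000639), Tapbpl (1.54 ± 0.34, adjusted p = 0.00464), H2-Oa (1.79 ± 0.42, adjusted p = 0.00718) and the class Ib gene H2-T23, which encodes Qa-1 (1.69 ± 0.42, adjusted p = 0.0102). The calls of H2-Oa, H2-T23 and Tapbpl were lost without 1 library, that of H2-Oa without APP/PS1 Ki67+ replicate 2 (1.56, adjusted p = 0.0754), that of H2-T23 without APP/PS1 Ki67+ replicate 1 (1.54, adjusted p = 0.105) or WT Ki67+ replicate 2 (1.53, adjusted p = 0.106), and that of Tapbpl without APP/PS1 Ki67+ replicate 2 (1.27, adjusted p = 0.0713) or WT Ki67+ replicate 1 (1.24, adjusted p = 0.0703).

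Subtraction of each library's mean of the 7 microglial markers, an alternative chosen after the data had been seen, lowers every difference of this comparison by 1.34. None of these 5 members was then called, with B2m at 0.70 (adjusted p = 0.0779). Under it 20 members were called lower and 0 higher. Of all genes 0.624% were then called higher and 69.3% lower, so these counts follow the subtraction and are not a result about the members. In Ki67- microglia at 6 months 0 members were called, against 0.0469% of all genes higher and 0.0134% lower (0.0604% in all). An unadjusted p under 0.05 was found for 4 members, against 7.12% of all genes. The interaction with the Ki67 fraction at 6 months called Tapbpl (2.28 ± 0.47, SE, limma adjusted p = 0.00853) and H2-T23 (2.49 ± 0.57, adjusted p = 0.0162), 2 members higher and 0 lower against 2.33% and 0.537% of all genes (2.86% in all). The H2-T23 call was lost without APP/PS1 Ki67+ replicate 1 (2.35, adjusted p = 0.0899), APP/PS1 Ki67- replicate 1 (2.10, adjusted p = 0.102) or WT Ki67+ replicate 2 (2.33, adjusted p = 0.0888). With the microglial markers subtracted, which lowers every interaction by 1.47, neither was called, and 17 other members were called lower, as were 53.9% of all genes. At 4 and 12 months the interaction called 0 members (0.0% of all genes) and 3 members (1 higher and 2 lower, against 3.55% and 4.46%, or 8.01% in all).

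The comparison of Ki67+ with Ki67- microglia gave the largest number of called members in WT mice at 12 months, where 18 of 45 were higher in Ki67+ microglia and 6 lower, against 26.2% and 20.1% of all genes (46.3% in all). H2-Q1, 1 of the 18, reached the tested level of 7 only in this Ki67+ group (mean 7.07), so the filter favoured its call. The same filter applied to all genes. The median difference of the members was 0.51 and that of all genes 0.09. Subtracting each library's median lowered all differences of this comparison by 0.22 and left 11 members higher and 8 lower. Here and below, the shares of all genes called after this subtraction were not counted, so member counts under it have no background beside them. Astrocyte markers, which should be absent from microglia, also differed between these fractions, with a mean over 5 markers of 10.65 to 10.98 in WT Ki67+ and 8.38 to 8.49 in WT Ki67- libraries at 12 months, and the part of other cells' RNA in these member differences was not tested. Astrocyte markers stood higher in the Ki67+ fraction in the other Ki67 comparisons too. For WT mice the list averaged 10.42 against 8.12 at the age of 4 months, then 8.69 against 7.90 at 6 months. The values for APP/PS1 mice were 10.51 against 8.49 (4 months), 8.67 against 8.0 (6 months) and 10.04 against 7.96 (12 months), and no library of one fraction reached the range of the other.

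H2-Aa had the largest of these differences. Its 4 WT Ki67+ libraries at 12 months (12.89 to 13.48, above) lay over the 3 WT Ki67- libraries at 10.39, 10.40 and 10.48, a difference of 2.77 ± 0.52 (SE, limma adjusted p = 0.000124). H2-Ab1 differed by 1.12 ± 0.44 (SE, limma adjusted p = 0.0389), a call lost without any 1 of the 7 libraries (adjusted p up to 0.0788), and H2-Eb1 by 0.35 ± 0.63 (SE, adjusted p = 0.682). Both classical heavy chains were higher in Ki67+ microglia, H2-K1 by 0.99 ± 0.23 (SE, limma adjusted p = 0.000993) and H2-D1 by 1.09 ± 0.27 (adjusted p = 0.00199). B2m differed by 0.81 ± 0.28 (SE, limma adjusted p = 0.0208), which was lost after subtraction of the library medians (0.58, adjusted p = 0.0791) and without WT Ki67+ replicate 4 (0.70, adjusted p = 0.0602) or WT Ki67- replicate 3 (0.79, adjusted p = 0.0506).

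Further members higher in WT Ki67+ microglia at 12 months were the class Ib gene H2-Q7 (1.92 ± 0.37, SE, limma adjusted p = 0.000138), Ifi30 (1.56 ± 0.33, adjusted p = 0.000467), Rfxank (1.77 ± 0.38, adjusted p = 0.000498), the immunoproteasome subunit Psmb9 (1.04 ± 0.29, adjusted p = 0.00543) and the pseudogene H2-T-ps (1.02 ± 0.30, adjusted p = 0.0079). The 5 lower members with the lowest p were Tapbpl (-1.51 ± 0.26, adjusted p = 5.09e-05), Psme2 (-1.10 ± 0.22, adjusted p = 0.000212), H2-Oa (-1.45 ± 0.32, adjusted p = 0.000709), the costimulatory receptor Cd40 (-1.09 ± 0.26, adjusted p = 0.00119) and H2-Ke6 (-0.82 ± 0.30, adjusted p = 0.0294). In their lower fraction H2-T-ps (6.25 to 6.30 in Ki67-) and Cd40 (6.29 to 6.60 in Ki67+) lay near the level of genes without signal. H2-Ke6 is named for its place in the MHC and encodes a steroid and fatty acid dehydrogenase, not an antigen presentation gene. Its call was lost without any 1 of 5 of the 7 libraries.

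In APP/PS1 mice at 12 months 3 members were higher and 4 lower in the Ki67+ fraction, against 10.6% and 7.24% of all genes (17.8% in all). The higher ones were H2-T-ps (1.15 ± 0.28, SE, limma adjusted p = 0.00556), H2-DMb2, a beta chain of H2-DM (1.67 ± 0.43, adjusted p = 0.00864) and H2-Q7 (1.13 ± 0.34, adjusted p = 0.0205). The lower ones were Psme2 (-0.65 ± 0.20, adjusted p = 0.026), H2-Oa (-0.95 ± 0.30, adjusted p = 0.028), H2-Ke6 (-0.84 ± 0.28, adjusted p = 0.0367) and H2-T24 (-0.91 ± 0.31, adjusted p = 0.0394). H2-T-ps and H2-DMb2 held without any 1 library, while H2-Q7 was lost without APP/PS1 Ki67+ replicate 4 (0.89, adjusted p = 0.0853) or APP/PS1 Ki67- replicate 4 (0.86, adjusted p = 0.0898) and the lower ones without any 1 of 4 to 6 of the 8 libraries. In the Ki67- libraries H2-T-ps was at 6.28 to 6.68, near the level of genes without signal. H2-Aa differed by 0.22 ± 0.48 (SE, limma adjusted p = 0.789), H2-K1 by 0.32 ± 0.21 (adjusted p = 0.307), H2-D1 by 0.29 ± 0.25 (adjusted p = 0.457) and B2m by 0.42 ± 0.26 (adjusted p = 0.267). For H2-Aa this Ki67 difference was tested against that in WT mice by the interaction given above, and it passed.

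**Figure D4:**
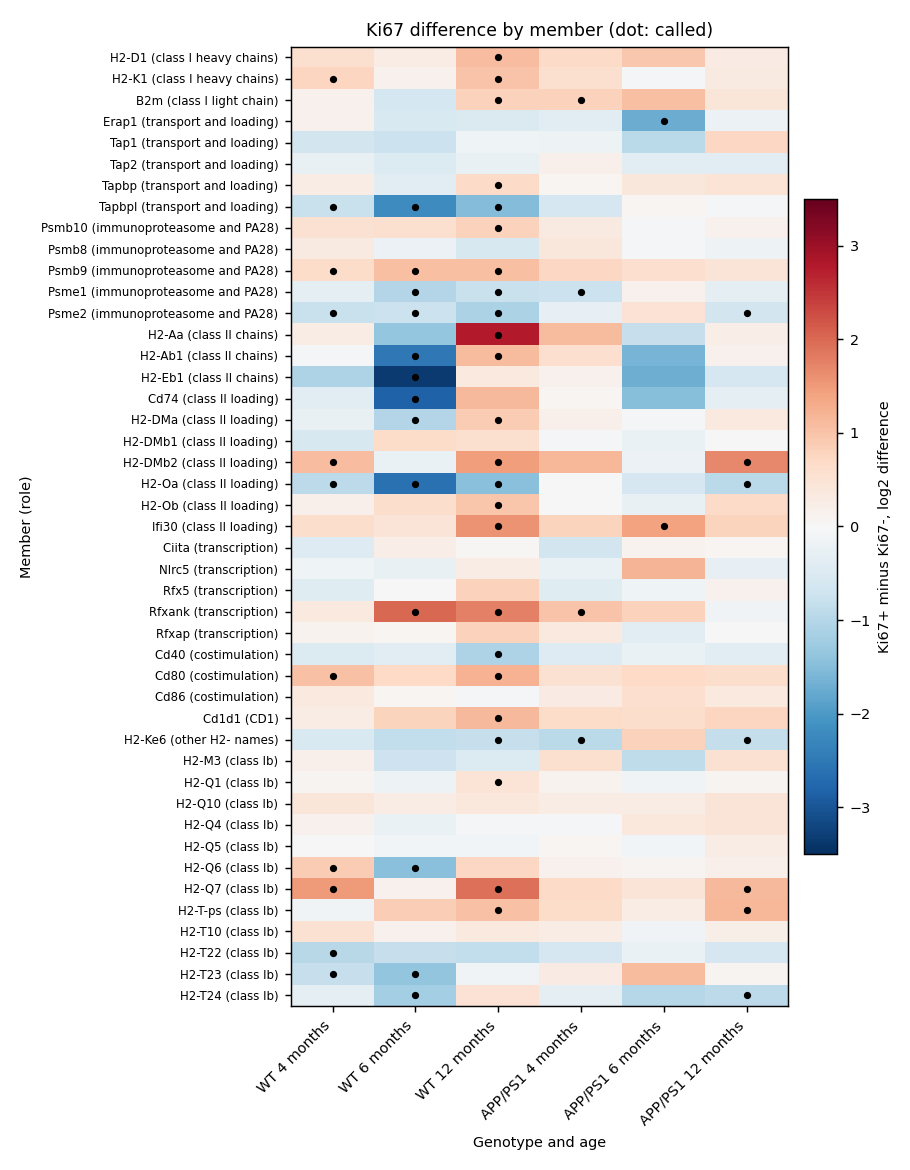
Difference between Ki67+ and Ki67- microglia (log2 scale, red higher in Ki67+) of the 45 tested members in each genotype and age, with a dot where the member was called at an FDR of 0.05. WT mice at 12 months have the most dots (24), and Tapbpl, H2-Oa and Psme2 are lower in Ki67+ microglia at all 3 ages in WT mice.

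At 4 months in WT mice 6 members were higher and 5 lower in Ki67+ microglia, against 19.3% and 14.5% of all genes (33.8% in all), and 3 were higher and 8 lower after subtraction of the library medians, which lowered the differences by 0.14. H2-Q7 had values of 9.23, 9.49, 9.61, 9.88 and 9.98 in Ki67+ and 7.75, 7.94, 8.03, 8.04 and 9.01 in Ki67- libraries, a difference of 1.48 ± 0.30 (SE, limma adjusted p = 0.000502). H2-K1 had values of 12.69, 12.70, 12.97, 13.17 and 13.37 against 11.82, 12.17, 12.24, 12.24 and 12.73, so that 1 Ki67- library lay within the Ki67+ range, with a difference of 0.74 ± 0.19 (SE, limma adjusted p = 0.00366). Cd80, the costimulatory ligand of CD28, was also higher (1.02 ± 0.31, adjusted p = 0.0123), as were H2-DMb2, H2-Q6 and Psmb9, whose calls were lost without any 1 of 5 to 9 of the 10 libraries.

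Psme2 (-0.79 ± 0.18, SE, limma adjusted p = 0.00147), Tapbpl (-0.78 ± 0.22, adjusted p = 0.007), H2-Oa (-0.91 ± 0.27, adjusted p = 0.0103), H2-T23 (-0.82 ± 0.26, adjusted p = 0.0177) and H2-T22 (-0.97 ± 0.32, adjusted p = 0.0195) were lower in WT Ki67+ microglia at 4 months. H2-T23 was lost without WT Ki67+ replicate 1 (-0.72, adjusted p = 0.0508) or WT Ki67- replicate 5 (-0.69, adjusted p = 0.0560), and H2-T22 without WT Ki67+ replicate 3 (-0.84, adjusted p = 0.0578) or WT Ki67- replicate 5 (-0.74, adjusted p = 0.0750). The class II chains did not pass, with differences of 0.25 ± 0.43 (SE) for H2-Aa, -0.04 ± 0.36 for H2-Ab1 and -1.09 ± 0.52 for H2-Eb1.

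In APP/PS1 mice at 4 months 2 members were higher in Ki67+ microglia, B2m (0.80 ± 0.26, SE, limma adjusted p = 0.0277) and Rfxank (1.00 ± 0.35, adjusted p = 0.0424), and 2 lower, H2-Ke6 (-0.93 ± 0.28, adjusted p = 0.0192) and Psme1 (-0.76 ± 0.27, adjusted p = 0.042), against 12.3% and 9.24% of all genes (21.5% in all). Without APP/PS1 Ki67+ replicate 1 no member was called, and subtraction of the library medians, which lowered the differences by 0.11, left 1 higher and 3 lower. In APP/PS1 mice at 6 months Ifi30 was higher (1.40 ± 0.44, adjusted p = 0.0464) and Erap1, the peptide-trimming aminopeptidase, lower (-1.73 ± 0.47, adjusted p = 0.0219), 1 in each direction against 5.21% and 2.6% of all genes (7.81% in all). The Ifi30 call was lost without any 1 of the 4 libraries (adjusted p up to 0.283), and that of Erap1 without APP/PS1 Ki67+ replicate 2 (-1.47, adjusted p = 0.205), APP/PS1 Ki67- replicate 1 (-1.56, adjusted p = 0.150) or APP/PS1 Ki67- replicate 2 (-1.90, adjusted p = 0.0645).

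In WT mice at 6 months 2 members were higher in Ki67+ microglia and 11 lower, against 17.8% and 19% of all genes (36.8% in all). H2-Ab1 had values of 8.17 and 8.34 in Ki67+ and 9.69, 10.91 and 11.64 in Ki67- libraries (-2.49 ± 0.52, SE, limma adjusted p = 0.000577). H2-Eb1 had values of 7.09 and 7.93 against 9.33, 10.67 and 12.59 (-3.35 ± 0.75, adjusted p = 0.00108), and Cd74 8.06 and 10.32 against 10.09, 12.75 and 13.25 (-2.84 ± 0.76, adjusted p = 0.00442), which overlapped and was lost without WT Ki67+ replicate 1 (-1.71, adjusted p = 0.165). H2-Oa was lower, with a difference of -2.62 ± 0.39 (SE, limma adjusted p = 1.11e-05), as was Tapbpl (-2.2 ± 0.31, adjusted p = 7.23e-06), while Rfxank was higher by 2.01 ± 0.45 (adjusted p = 0.00114). These Ki67+ libraries are those with low microglial markers, and subtracting the marker mean raises every difference by 1.33. It gave 27 members called higher and 4 lower, against 66.7% and 2.33% of all genes. H2-Ab1, H2-Eb1, H2-Oa and Tapbpl remained the 4 called lower, with H2-Ab1 at -1.16 and H2-Eb1 at -2.02. The number of members called in the main comparison was 8 without WT Ki67+ replicate 1 and 7 without WT Ki67+ replicate 2.

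**Figure D5:**
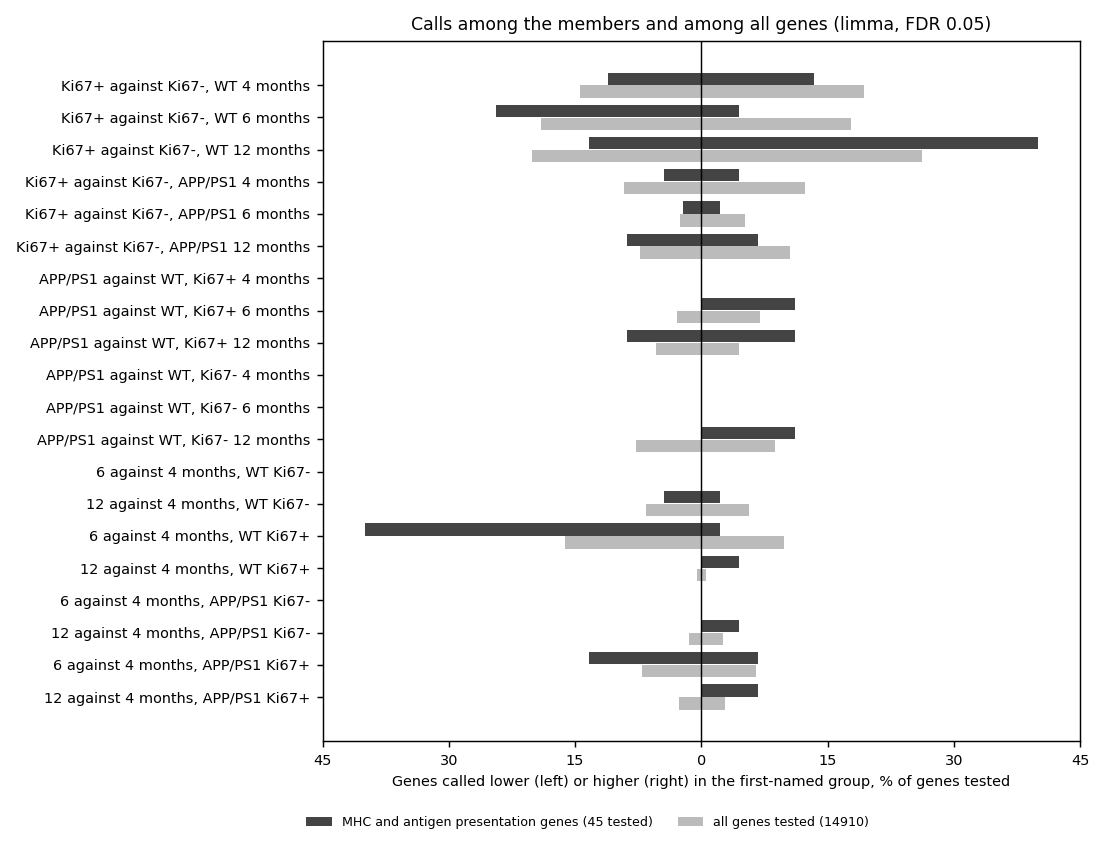
Share of genes called higher (right) or lower (left) in the first-named group of each of 20 comparisons, for the 45 tested members in dark grey and all 14910 genes tested in light grey (% of genes tested, limma, FDR 0.05). The bar of the members is longer than that of all genes to the right in WT mice at 12 months (18 of 45 higher in Ki67+ microglia, with H2-Q1 tested only through this group, against 26.2% of all genes). It is longer to the left in WT Ki67+ microglia from 4 to 6 months (18 of 45 lower against 16.3%). After subtraction of library medians the former count is 11 higher and 8 lower, with the shares of all genes not counted. With the microglial marker mean subtracted the latter is 19 higher and 3 lower, against 65.6% and 0.986% of all genes.

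With age, H2-Aa and H2-Ab1 rose in WT Ki67+ microglia, and B2m and H2-D1 rose in APP/PS1 microglia. From 4 to 12 months H2-Ab1 was higher by 1.85 ± 0.39 (SE, limma adjusted p = 0.016) in WT Ki67+ microglia, from values of 10.49, 10.82, 11.25, 11.55 and 11.89 to the 12.99 to 13.17 given above. H2-Aa was higher by 2.15 ± 0.46 (SE, limma adjusted p = 0.0183), from 10.26, 10.83, 11.36, 11.38 and 11.39, and its call was lost without WT Ki67+ replicate 1 (2.17, adjusted p = 0.0517), 2 (2.12, adjusted p = 0.0547) or 4 (2.06, adjusted p = 0.0509) of the 12-month group. No 4-month value of either gene reached the 12-month range. These were the 2 members called higher, with 0 lower, in a comparison that called 0.496% of all genes in each direction (0.993% in all). Cd74 (1.92 ± 0.56, SE, limma adjusted p = 0.0932) and H2-Eb1 (1.88 ± 0.55, adjusted p = 0.100) had differences of like size that did not pass. In APP/PS1 Ki67+ microglia over the same ages H2-Aa differed by -0.09 ± 0.48 (SE, adjusted p = 0.942) and H2-Ab1 by 0.09 ± 0.41 (adjusted p = 0.934), and the difference between the genotypes in this change did not pass, as given above for H2-Aa, or for H2-Ab1 (-1.76 ± 0.56, adjusted p = 0.115).

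From 4 to 12 months B2m rose in APP/PS1 Ki67- microglia, from 13.02, 13.09, 13.40 and 13.49 to 14.07 to 15.13 (1.34 ± 0.26, SE, limma adjusted p = 0.00219). H2-D1 rose from 11.83, 11.94, 11.96 and 11.96 to 13.04 to 13.50 (1.30 ± 0.25, SE, limma adjusted p = 0.00233). Neither range overlapped between the ages, and these were the 2 members called higher with 0 lower, against 2.6% and 1.51% of all genes (4.11% in all). In APP/PS1 Ki67+ microglia B2m (0.97 ± 0.26, SE, limma adjusted p = 0.0271), H2-D1 (0.93 ± 0.25, adjusted p = 0.0292) and Psme1 (0.94 ± 0.27, adjusted p = 0.038) were the 3 called higher with 0 lower, against 2.8% and 2.61% (5.41% in all). Without APP/PS1 Ki67+ replicate 3 of the 12-month group, or replicate 2 of the 4-month group, 0 members were called, whereas subtraction of the library medians raised the number to 6, all higher.

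In WT Ki67- microglia from 4 to 12 months Cd40 was higher (0.77 ± 0.24, SE, limma adjusted p = 0.0384), and Rfxank (-1.16 ± 0.36, adjusted p = 0.037) and H2-DMb1 (-0.85 ± 0.28, adjusted p = 0.043) were lower, 1 and 2 members against 5.61% and 6.6% of all genes (12.2% in all). All 3 calls were lost without any 1 of 6 to 8 of the 8 libraries, and subtraction of the medians gave 3 members higher and 1 lower. B2m (-0.32 ± 0.27), H2-D1 (-0.09 ± 0.26) and H2-K1 (-0.17 ± 0.22) did not pass there.

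Between 4 and 6 months no member passed in Ki67- microglia of either genotype (limma). In WT mice 10 genes in each direction were called (0.0671%, or 0.134% in all). There 11 of the 45 members had an unadjusted p under 0.05, 10 of them lower at 6 months, against 11.2% of all genes in both directions. In APP/PS1 mice 0.114% of genes were called higher and 0.0671% lower (0.181% in all). An unadjusted p under 0.05 was found for 5 of the 45 members, all lower, against 9.83% of all genes in both directions. In WT Ki67+ microglia 1 member was higher at 6 months and 18 were lower, against 9.76% and 16.3% of all genes (26% in all), with a median of -0.71 for the members and -0.12 for all genes. H2-Ab1 (-2.95 ± 0.48, SE, limma adjusted p = 8.42e-05), H2-Aa (-2.83 ± 0.57, adjusted p = 0.000794), Tapbpl (-1.42 ± 0.29, adjusted p = 0.000794), H2-K1 (-1.21 ± 0.25, adjusted p = 0.000982) and H2-Q6 (-2.14 ± 0.45, adjusted p = 0.0011) had the lowest p. Cd74 (-3.28 ± 0.69, SE, adjusted p = 0.00113), H2-Eb1 (-2.45 ± 0.69, adjusted p = 0.0103) and B2m (-1.44 ± 0.31, adjusted p = 0.00127) were lower as well, as was H2-D1 (-0.92 ± 0.30, adjusted p = 0.0251). The Cd74 and H2-D1 calls were lost without WT Ki67+ replicate 1 of the 6-month group (-2.15, adjusted p = 0.0823, and -0.37, adjusted p = 0.513), and that of H2-Eb1 without replicate 1 (-2.04, adjusted p = 0.124) or 2 (-2.87, adjusted p = 0.0509). The member called higher was Rfxank (1.50 ± 0.42, adjusted p = 0.00934), whose call was lost without replicate 2 (1.40, adjusted p = 0.121). Without WT Ki67+ replicate 2 of the 6-month group 9 members were called in all. Subtracting the microglial marker mean raises every difference here by 1.23 and gave 19 members called higher and 3 lower, against 65.6% and 0.986% of all genes. The 3 were H2-Aa (-1.60, adjusted p = 0.00885), H2-Ab1 (-1.71, adjusted p = 0.00198) and Cd74 (-2.05, adjusted p = 0.00664), while H2-K1 was at 0.03 (adjusted p = 0.939) and B2m at -0.20 (adjusted p = 0.555).

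In APP/PS1 Ki67+ microglia, whose 6-month libraries had microglial markers in the usual range (13.75 to 13.89), 3 members were higher at 6 than at 4 months and 6 lower, against 6.47% and 7.11% of all genes (13.6% in all). H2-Aa had values of 7.70 and 9.15 at 6 months and 10.73, 11.16, 11.23 and 11.57 at 4 months (-2.75 ± 0.59, SE, limma adjusted p = 0.00261), and H2-Ab1 8.67 and 10.15 against 10.91, 11.17, 11.48 and 11.64 (-1.89 ± 0.50, adjusted p = 0.0116). Both calls were lost without APP/PS1 Ki67+ replicate 2 of the 6-month group (-2.03, adjusted p = 0.109, and -1.15, adjusted p = 0.289). H2-DMb2 (-2.02 ± 0.53, adjusted p = 0.0115), H2-K1 (-0.85 ± 0.26, adjusted p = 0.0281), H2-Q10 (-1.0 ± 0.32, adjusted p = 0.035) and H2-Q7 (-1.22 ± 0.41, adjusted p = 0.049) were also lower, and H2-Ke6 (1.73 ± 0.34, adjusted p = 0.00126), Psme2 (1.13 ± 0.25, adjusted p = 0.00286) and Psme1 (1.03 ± 0.33, adjusted p = 0.0372) higher. The Psme1 difference ranged from 0.48 to 1.58 and lost its call without any 1 of 4 of the 6 libraries (adjusted p up to 0.546). H2-Q7 lost its call without any 1 of 5, H2-Q10 of 3 and H2-K1 and H2-DMb2 of 2, and H2-Ke6 without APP/PS1 Ki67+ replicate 1 of the 6-month group (1.49, adjusted p = 0.0528), whereas Psme2 held. Without either of the 6-month Ki67+ libraries 3 members were called. Oligodendrocyte markers averaged 13.09 in these 2 libraries and 9.01 in the APP/PS1 Ki67- libraries of that age, the highest of all groups, and their part in these differences was not tested. Comparisons that share libraries, as those of 1 group with several others do, are not independent of each other.

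Of 36 tested genes of the surrounding pathway, none of them a member, 6 were higher and 3 lower in APP/PS1 Ki67+ microglia at 12 months, against 4.43% and 5.34% of all genes, and 5 were higher and 0 lower in Ki67- microglia, against 8.71% and 7.72%. Cathepsin L (Ctsl), a lysosomal protease, was higher by 1.25 ± 0.27 (SE, limma adjusted p = 0.00429) in Ki67+ and by 2.31 ± 0.29 (adjusted p = 4.93e-06) in Ki67- microglia. Cathepsin S (Ctss), which trims the invariant chain, was higher by 0.69 ± 0.21 (adjusted p = 0.0384) and 0.87 ± 0.23 (adjusted p = 0.0103), and the interferon regulatory factor Irf8 by 0.95 ± 0.22 (adjusted p = 0.00722) and 0.70 ± 0.23 (adjusted p = 0.0400). Cd274, which encodes the inhibitory ligand PD-L1, was higher by 1.09 ± 0.29 (adjusted p = 0.0193) and 1.73 ± 0.32 (adjusted p = 0.000523).

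The NF-Y subunits Nfyb and Nfyc, which bind Y boxes, were lower in APP/PS1 Ki67+ microglia at 12 months, with differences of -1.20 ± 0.31 (SE, limma adjusted p = 0.0159) and -1.31 ± 0.26 (adjusted p = 0.00282). In WT mice of that age they were higher in the Ki67+ than in the Ki67- fraction, by 2.56 ± 0.34 (adjusted p = 1.33e-06) and 2.34 ± 0.29 (adjusted p = 5.06e-07), and by 0.93 ± 0.31 (adjusted p = 0.0375) and 1.05 ± 0.26 (adjusted p = 0.00684) in APP/PS1 mice. The interaction passed for both, at -1.63 ± 0.46 (adjusted p = 0.0284) and -1.29 ± 0.39 (adjusted p = 0.0387). For the third subunit, Nfya, the genotype difference in Ki67+ microglia (-0.25 ± 0.35, SE, limma adjusted p = 0.695) did not pass. Its interaction (-1.0 ± 0.51, limma adjusted p = 0.233) did not pass either. The part of NF-Y in the member differences was not tested. Psmb6, the constitutive proteasome subunit that Psmb9 replaces, was called lower in Ki67+ microglia in all 6 comparisons with Ki67- microglia, with differences of -2.12 ± 0.23 to -0.97 ± 0.22 (SE). Over the 36 genes 6 were called higher and 4 lower between the fractions of WT mice at 12 months (Ki67+ against Ki67-), against 26.2% and 20.1% of all genes, and 3 and 1 in APP/PS1 mice of that age, against 10.6% and 7.24%. From 4 to 12 months 2 pathway genes were higher and 3 lower in WT Ki67- microglia, against 5.61% and 6.6% of all genes, and 1 and 1 in WT Ki67+ microglia, against 0.496% each. In APP/PS1 Ki67- microglia they were 2 and 0, against 2.6% and 1.51%, and in APP/PS1 Ki67+ microglia 1 and 2, against 2.8% and 2.61%.

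Of the costimulatory genes, Cd80, Cd86 and Cd40 were called between genotypes in none of the 6 comparisons (limma), with differences at 12 months of -0.42, 0.50 and 0.20 in Ki67+ and 0.20, 0.12 and -0.52 in Ki67- microglia. Cd1d1, which presents lipids to NKT cells, had differences of -0.75 and -0.37 that did not pass.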

How the data were processed

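RNA of fixed, sorted Ki67+ and Ki67- microglia was analysed in 42 libraries of 12 groups, and 0 columns of the table were left unmatched. The authors converted reads with bcl2fastq 2.20, quantified read 1 with kallisto 0.43.1 on GRCm38, normalized with DESeq2, transformed to a log2 scale and removed 10 surrogate variables with the groups kept. The deposited values, recorded here as a score, are not counts. Their columns sum to 146095 to 149313, and depth per library is unknown.

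Group means of all 12 groups were fitted with limma 3.58.1 in R 4.3.3. The 10 removed directions were counted as spent (20 residual and 6.94 prior degrees of freedom). A gene was tested where 1 group or more had a mean of 7 or higher, 14910 in all, with Benjamini-Hochberg adjustment over them and an FDR of 0.05. The fit was tested on simulated data. Nothing says whether libraries of a group came from separate mice, so p-values measure only the spread between libraries.

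The members and gene lists were chosen with earlier results of these data known. In each comparison the genes named were H2-K1, H2-D1, B2m, H2-Aa, H2-Ab1, H2-Eb1 and Cd74, up to 5 further called members per direction with the lowest p, every member called in a test of a difference between effects, members of counts up to 5, and a few pathway genes. Pathway genes beyond 2 per list with the lowest p, and members named without a call, were picked with their values in view. The alternatives were testing all genes, fits to the ages compared, subtraction of library medians, leaving out each library and, added after seeing the data, subtraction of the mean of 7 microglial markers. Python 3.11.15, pandas 2.3.3, numpy 2.4.6 and matplotlib 3.10.9 made tables and figures. Gene positions came from GENCODE M21.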

Additional observations from a re-analysis of the deposited data

Results flagged for a closer look

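Differences between effects were tested for the 45 tested members, and 9 results in 7 members passed (limma, FDR 0.05), against 6.26%, 8.01% and 2.86% of all genes in the 3 tests that follow. The APP/PS1 effect in Ki67- microglia was larger at 12 than at 4 months for B2m (1.67 on the log2 scale), Rfxank (2.04), H2-D1 (1.39) and H2-T24 (1.47). At 12 months the APP/PS1 effect differed between Ki67+ and Ki67- microglia for Tapbpl (1.45), Rfxank (-1.89) and H2-Aa (-2.55), and at 6 months for Tapbpl (2.28) and H2-T23 (2.49). The WT Ki67- libraries at 12 months, with a median SD of 0.0318, enter 7 of these 9, and the WT Ki67+ libraries with low microglial markers enter the other 2. Their part in these differences was not tested beyond the alternatives given below.

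Single libraries far from the rest of their group were sought for H2-K1, H2-D1, B2m, H2-Aa, H2-Ab1, H2-Eb1 and Cd74 in the 7 groups of 4 or 5 libraries. Of 49 pairs of gene and group 3 were found, where chance gives about 1 in 20. H2-D1 was low in 1 APP/PS1 Ki67- library at 4 months (11.83), close to the 11.94 to 11.96 of the others of its group. The other 2 were the same library, WT Ki67- replicate 5 at 4 months, high in H2-D1 (12.49) and H2-Ab1 (11.58). That library was also the highest of its group for H2-K1 (12.73).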

How the results depend on the processing

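Of the 127 calls of single members, 56 held without any 1 library and 71 were lost without at least 1. For the nearly identical WT Ki67- libraries at 12 months this check says little, since leaving out 1 hardly moves their mean. Testing all genes kept 118 of the 127, fits to the compared ages 103 and subtraction of library medians 109, and none of these 3 turned a direction. Subtraction of the microglial marker mean, run where the WT Ki67+ libraries at 6 months enter, kept 10 calls, lost 17 and turned 12. Depth could not be read from the values, so no limit from counting can be given. No paired analysis was possible because the labels give each library a number of its own, with none shared between groups.

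The number of members called moved by over 1.5 times as follows. With all genes tested it fell from 2 to 1 for Ki67+ against Ki67- in APP/PS1 mice at 6 months. With the compared ages only it was 1 there, 4 in APP/PS1 mice at 12 months (main 7), 3 for APP/PS1 against WT in Ki67- microglia at 12 months (main 5), 4 for 12 against 4 months in WT Ki67+ microglia (main 2), 0 for the interaction at 6 months (main 2) and 1 for the APP/PS1 effect at 12 minus 4 months in Ki67+ microglia (main 0). With library medians subtracted it was 6 for 12 against 4 months in APP/PS1 Ki67+ microglia (main 3). With the microglial marker mean subtracted it was 31 for Ki67+ against Ki67- in WT mice at 6 months (main 13), 20 for APP/PS1 against WT in Ki67+ microglia at 6 months (main 5) and 17 for the interaction at 6 months (main 2).

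Subtracting the marker mean, which moves all differences of a comparison alike (by -1.47 to 1.33), also turned directions, all in comparisons with the WT Ki67+ libraries at 6 months. Against Ki67- microglia of WT mice at 6 months, B2m became 0.72, H2-DMa 0.31, H2-T24 0.13, Psme1 0.30 and Psme2 0.58. Between genotypes in Ki67+ microglia at 6 months, H2-K1 became -1.11. From 4 to 6 months in WT Ki67+ microglia, H2-D1 became 0.32, H2-K1 0.03, H2-Oa 0.05, H2-Q1 0.66, H2-Q4 0.35, H2-Q5 0.24, H2-T23 0.17 and Tap2 0.35. The cause was not tested.

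Without 1 library at a time, the members called between Ki67+ and Ki67- microglia ranged from 8 to 11 in WT mice at 4 months, 7 to 13 at 6 and 16 to 21 at 12, and in APP/PS1 mice from 0 to 6, 0 to 2 and 3 to 6. Between genotypes in Ki67+ microglia they ranged from 4 to 5 at 6 months and 4 to 8 at 12, and in Ki67- microglia from 4 to 7 at 12. From 4 to 6 months they ranged from 9 to 19 in WT Ki67+ and 3 to 10 in APP/PS1 Ki67+ microglia, and from 4 to 12 months from 0 to 2 in WT Ki67-, 1 to 2 in WT Ki67+, 2 to 3 in APP/PS1 Ki67- and 0 to 3 in APP/PS1 Ki67+ microglia. The interaction ranged from 1 to 3 at 6 months and 2 to 4 at 12, and the change of the APP/PS1 effect from 3 to 4 in Ki67- microglia. The other 7 comparisons stayed at 0.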
